A study of Mus musculus with 11 samples.

Results

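The genes described here are 5 members of the interleukin-1 (IL-1) family and its receptors, Il1a, Il1b, Il1rn, Il18 and Il1rl1, together with the inflammasome sensor gene Nlrp3. All 6 are among the 754 genes of the panel table. Of these 6 genes, 4 were measured in at least some mice and tested, while Il1b and Il1rn were too low to be measured in any mouse.

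The study asked how macrophages of the mouse peritoneal cavity respond to IL-4, and how that response differs when RELMα, the secreted protein encoded by Retnla, is missing. Macrophages positive for CD11b and F4/80 were sorted from the peritoneal cavity of single mice and lysed, and their transcripts were counted directly, without amplification, by the barcoded probes of a Nanostring panel (Myeloid Innate Immunity v2). The 4 groups were PBS-treated Rα+/+ (mice 1 and 2), PBS-treated RαTd/Td (mice 3 and 4), IL-4c-treated Rα+/+ (mice 5, 6 and 7) and IL-4c-treated RαTd/Td (mice 9, 10, 11 and 12). The panel was run in a single experiment.

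All mice were females of 6 to 8 weeks on a C57BL/6 background. Rα+/+ mice carry intact Retnla, and in RαTd/Td mice part of both copies of Retnla is replaced by the red reporter TdTomato. The replaced allele came from a cross to a deleter line with Cre under the CMV promoter, so the gene is missing from all cells of the mouse and not from macrophages alone. The lines were derived from littermates and then bred in-house. IL-4c is IL-4 bound to the anti-IL-4 antibody 11B11, and it or the vehicle PBS was injected into the peritoneum on days 0 and 2, with cells collected on day 4. A further IL-4c-treated Rα+/+ mouse that the study left out is not analysed here.

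IL-1α, IL-1β and IL-18 are inflammatory cytokines, and of these IL-1β and IL-18 are made as inactive precursors that caspase-1 cleaves within an inflammasome, such as the complex that NLRP3 builds with the adaptor ASC. IL-1 binds a receptor pair that signals through MyD88 to NF-kB, and the antagonist encoded by Il1rn blocks the same receptor, while ST2, encoded by Il1rl1, is the receptor for the related alarmin IL-33. In macrophages, Nlrp3 and Il1b are classical targets of NF-kB after Toll-like receptor signals, a step known as priming, whereas IL-4 acts through its receptor and STAT6.

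Values are normalized counts, that is, counts that the authors scaled to 4 housekeeping genes. Low values had been replaced by a floor of 30 normalized counts. The values fit a floor that also held for unscaled counts, which is read from the values and not stated in the sources used here, and with that floor the lowest measurable value differed between mice, at 48.2 and 30.7 in mice 1 and 2, 56.1 and 56.3 in mice 3 and 4, 34.3 to 36.4 in mice 5 to 7, and 30.5 to 34.4 in mice 9 to 12. A gene at the floor therefore has an upper limit and no level, and was below the lowest measurable value of that mouse. Counts above the floor summed to between 268858 and 574505 per mouse. Differences are on the log2 scale after adding 1, and a gene is called when limma gave an adjusted p of 0.05 or less.

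Retnla, the gene altered in the RαTd/Td mice, was at 4631 and 4141 normalized counts in PBS-treated Rα+/+ mice and at 115675, 147349 and 171588 after IL-4c. It was at the floor in all 6 RαTd/Td mice, so each mouse matched its genotype label. Where the Retnla probe lies relative to the replaced exons is not given in the sources used here.

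The sorted cells carried the markers of peritoneal macrophages. Of 11 such genes on the marker list, 9 are in the table and 8 or 9 of them were above the floor in each mouse, with summed levels of 25444 to 32085 normalized counts and Itgam as the most abundant in 10 of 11 mice. Gata6, the transcription factor of large peritoneal macrophages, was at 503 to 712 normalized counts, while other genes of this list were lower after IL-4c, as given below. Mouse 12 stood apart from the other IL-4c-treated RαTd/Td mice in several genes, with the highest Ccr2 (464), Mrc1 (989) and Ccl24 (3689) and the lowest Klf4 (1153) of that group. It was also the only IL-4c-treated mouse with the B cell gene Ms4a1 (63.1) or the stromal gene Col3a1 (68.9) above the floor, so several results are given with and without it.

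IL-4c was followed by higher Il1rl1 and Il1a and lower Nlrp3 in Rα+/+ mice. In that comparison 2 of the 4 tested genes were called higher, against 13.9% of the 445 tested genes of the panel, and 1 was called lower, against 32.4%. In RαTd/Td mice 2 were called higher, against 15.3% of tested genes, and 2 were called lower, against 36.6%. Il1rl1 and Il1a passed the filter on low values only through the IL-4c-treated mice, so these counts do not support a statement about the group of genes, and each gene is described by its own values.

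**Figure D1:**
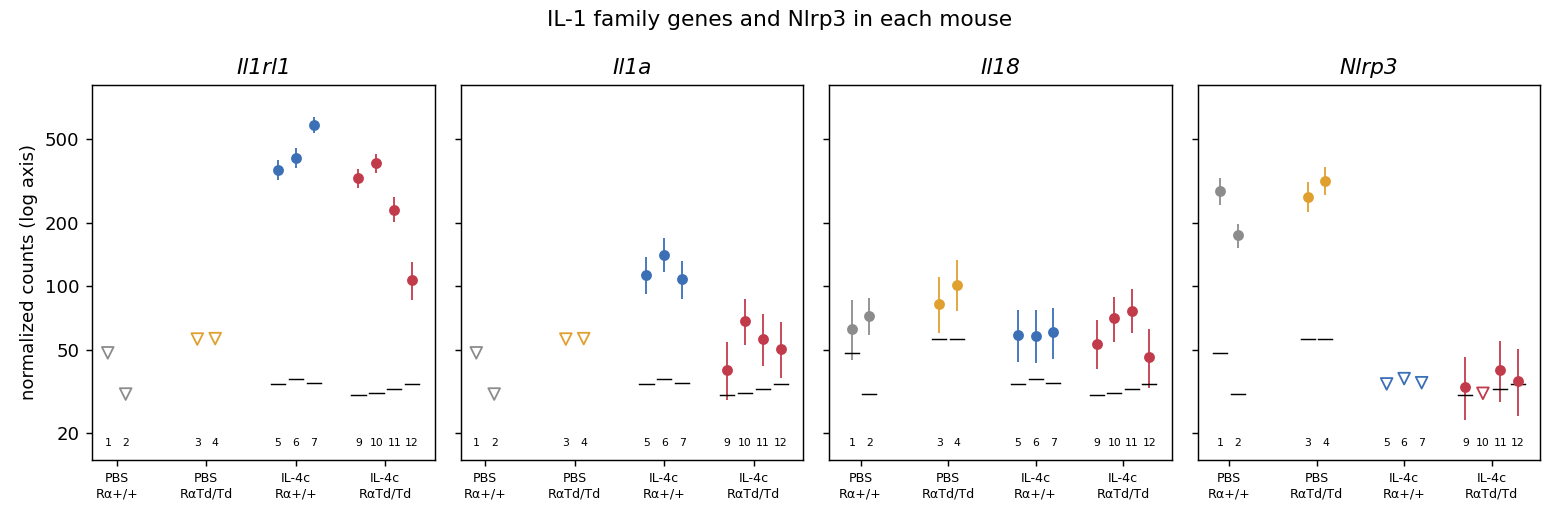
Normalized counts (log axis) of Il1rl1, Il1a, Il18 and Nlrp3 in each of 11 mice, with mouse numbers along the bottom, dots for measured values with 95% Poisson intervals, open triangles for mice at the floor drawn at their lowest measurable value, and dashes for the lowest measurable value of the other mice. Il1rl1 was measured in the 7 IL-4c-treated mice alone, from 107 to 581, while Nlrp3 fell from 174 to 315 in PBS-treated mice to at most 39.9 after IL-4c.

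Among the ligands, Il1a, which encodes the alarmin IL-1α, could not be measured in any of the 4 PBS-treated mice. With IL-4c, Rα+/+ mice 5, 6 and 7 had 113, 141 and 108 normalized counts. In IL-4c-treated RαTd/Td mice 9, 10, 11 and 12 it was at 40.0, 68.2, 56.05 and 50.5. Every IL-4c-treated Rα+/+ mouse thus lay above every IL-4c-treated RαTd/Td mouse, and the lowest of the former was well above the highest of the latter.

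The group means were 121 ± 17.6 normalized counts (SD, n = 3) in Rα+/+ mice and 53.7 ± 11.8 (SD, n = 4) in RαTd/Td mice. In Rα+/+ mice Il1a was at least 3.11-fold higher after IL-4c than after PBS, a lower limit that takes each control mouse at its lowest measurable value and averages these on the log scale. The fitted log2 difference was 1.96 (SE 0.20), with an adjusted p of 6.26e-05 in limma (1.08 with 1 common floor for all mice), and 3 of 3 mice were above the limits of both controls. In bulk samples such as these, fewer cells of a type and less RNA per cell cannot be told apart.

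For RαTd/Td mice the fit also called Il1a after IL-4c, with a log2 difference of 0.79 (SE 0.19) and an adjusted p of 0.00679 in limma, but that call depends on the value put in place of unmeasured counts. The lowest measurable values of PBS-treated mice 3 and 4 (56.1 and 56.3) exceeded the Il1a values of 3 of the 4 IL-4c-treated mice, so no lower limit of a fold can be given. With 1 common floor for all mice the difference was 0.07 (adjusted p = 0.701 in limma), within a range of 0.07 to 1.12 over all settings. A rise of Il1a in RαTd/Td mice was therefore not detectable at this depth.

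Between the genotypes after IL-4c, where Il1a was measured in all 7 mice, it was lower in RαTd/Td mice by a log2 difference of -1.17 (SE 0.17, 95% confidence interval -1.55 to -0.79). The adjusted p was 0.00594 in limma. Of the 4 genes tested, Il1a was the only one called in this comparison, against 2.7% of tested genes. An unadjusted p of 0.05 or less in limma was found for 2 of the 4, against 97 of all 445 tested genes. The counts behind the values were 99, 116 and 93 in Rα+/+ mice and 42, 66, 52 and 44 in RαTd/Td mice. In normalized counts the 95% Poisson intervals, which cover counting error only, do not overlap between the genotypes, the nearest pair being 87.1 to 132 in mouse 7 and 52.7 to 86.8 in mouse 10, while in counts the interval of mouse 10 (51.0 to 84.0) overlaps those of mouse 7 (75.1 to 114) and mouse 5 (80.5 to 121).

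The Il1a difference between the genotypes kept its sign and its call when each mouse was left out in turn, at -1.29 to -1.04, and was -1.15 without mouse 12 (adjusted p = 0.0354 in limma). The error in the main fit also drew on the PBS-treated mice, which were all at the floor for Il1a and so showed no spread. The Il1a difference was not called when only the 2 groups were fitted (adjusted p = 0.0803 in limma), and the range of adjusted p over all settings was 0.000858 to 0.184. The difference between the genotypes in their response to IL-4c was also -1.17 for Il1a, with an adjusted p of 0.0569 in limma. That value adds no second measurement, because Il1a was at the floor in every PBS-treated mouse.

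The promoter of Il1a is shown because this gene was called in 3 of the comparisons. For the 6 genes, RefSeq lists 10 starts in mouse build GRCm38.p6, and the 250 bases before each were searched on both strands for 5 motifs. These were TTCNNNNGAA (the spacing that STAT6 prefers, present in 5.85% of 32841 such windows), TTCNNNGAA (other STAT proteins, 7.02%), TATAAA (the TATA box, 12.4%), TGANTCA (AP-1, 6.75%) and the NF-kB motif (3.9%). A match is a stretch of letters and says nothing of binding in these cells. On the minus strand of chr2:129309973-129310222, capitals mark a TATAAA at positions -32 to -27 from the start and an AP-1 match at bases 239 to 245.
Il1a: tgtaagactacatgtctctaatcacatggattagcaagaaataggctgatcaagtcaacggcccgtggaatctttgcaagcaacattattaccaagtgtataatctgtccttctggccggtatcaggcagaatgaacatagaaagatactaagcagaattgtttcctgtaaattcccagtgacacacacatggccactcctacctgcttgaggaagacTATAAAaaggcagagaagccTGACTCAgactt

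Il18 encodes a cytokine that, unlike IL-1α, needs cleavage by caspase-1, and it was the only 1 of the 6 genes measured in all 11 mice. It was at 62.7 and 72.0 normalized counts in PBS-treated Rα+/+ mice and at 82.2 and 101 in PBS-treated RαTd/Td mice. After IL-4c it was at 58.4, 58.2 and 60.3 in Rα+/+ mice and at 53.3, 70.3, 76.5 and 45.9 in RαTd/Td mice. Within each genotype the IL-4c-treated mice all lay below the PBS-treated mice, although by little, and after IL-4c the genotypes overlapped.

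The group means of Il18 were 67.4 ± 6.56 (SD, n = 2) and 91.8 ± 13.6 (SD, n = 2) normalized counts after PBS in Rα+/+ and RαTd/Td mice. After IL-4c they were 59.0 ± 1.16 (SD, n = 3) and 61.5 ± 14.3 (SD, n = 4). In Rα+/+ mice the log2 difference was -0.19 (95% confidence interval -0.65 to 0.28, adjusted p = 0.517 in limma), and it was positive under 3 other scalings of the mice. In RαTd/Td mice it was -0.59 (-1.03 to -0.15), with an adjusted p of 0.0293 in limma.

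The fall of Il18 in RαTd/Td mice was small, and the call depended on single mice and on the settings. Without mouse 4 it was -0.44 (adjusted p = 0.207 in limma) and without mouse 9 it was -0.53 (adjusted p = 0.066), while without mouse 12 it was -0.46 (adjusted p = 0.0414), against a range of adjusted p of 0.0127 to 0.391 over all settings. With all mice kept, it was -0.26 with centring on the median gene (adjusted p = 0.317) and -0.34 with quantile normalization (adjusted p = 0.391), and the call was also lost without a filter (adjusted p = 0.0776) and with only the 2 groups fitted (adjusted p = 0.111, all in limma). With scaling on the positive control probes and a common floor the difference was 0.20. The response did not differ between the genotypes beyond its error, at -0.41 (95% confidence interval -1.05 to 0.24, adjusted p = 0.522 in limma). The Il18 promoter window holds a STAT6 match at bases 205 to 214 and a TATA box match on the other strand.

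Il1b, which encodes IL-1β, and Il1rn, which encodes the IL-1 receptor antagonist, were at the floor in all 11 mice. Their transcripts were thus below 30.5 to 56.3 normalized counts, depending on the mouse, and no comparison can be made for either gene. Il33, the ligand of ST2, was also at the floor in all 11 mice. Of 14 IL-1 family ligands on the list, 5 are in the table and only Il1a and Il18 were tested. The promoter windows of the unmeasured Il1b and Il1rn hold matches too. That of Il1b has a TATA box match at bases 220 to 225. An Il1rn window has an AP-1 match at bases 110 to 116, and its others have a STAT6 match, at bases 130 to 139 and at bases 50 to 59.

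Il1rl1 encodes ST2, the receptor for IL-33, in a membrane-bound and a soluble form, and which form the probe detects was not tested. None of the 4 PBS-treated mice had a measurable level. With IL-4c, Rα+/+ mice 5, 6 and 7 had 356, 404 and 581 normalized counts. For RαTd/Td mice 9, 10, 11 and 12 these were 325, 383, 231 and 107. Every IL-4c-treated mouse was above the limit of every PBS-treated mouse, the lowest being mouse 12, and the genotypes overlapped, since mouse 10 was above mouse 5.

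Il1rl1 was at least 11.4-fold higher after IL-4c in Rα+/+ mice, and the log2 difference was 3.82 (SE 0.45), with an adjusted p of 0.000136 in limma. In RαTd/Td mice it was at least 4.19-fold higher, and the log2 difference was 2.93 (SE 0.43), with an adjusted p of 0.000458 in limma. Without mouse 12 the latter was 3.31. With 1 common floor for all mice the differences were 2.93 in Rα+/+ and 2.04 in RαTd/Td mice, both called. Part of the gap between the lower limits comes from the control mice, whose lowest measurable values were higher in RαTd/Td mice.

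After IL-4c the mean level of Il1rl1 was 447 ± 119 normalized counts (SD, n = 3) in Rα+/+ mice and 261 ± 121 (SD, n = 4) in RαTd/Td mice. The log2 difference was -0.89 (95% confidence interval -1.74 to -0.04), which was not called, with an adjusted p of 0.214 in limma. Without mouse 12 it was -0.51 (adjusted p = 0.27 in limma, range over all settings 0.11 to 0.49). The genotype difference in the response to IL-4c is the same value, since Il1rl1 was at the floor in every PBS-treated mouse, and adds no second measurement.

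RefSeq lists a pair of starts for Il1rl1, and both windows are shown because this gene went from unmeasured to measured in every mouse given IL-4c. Neither of them, at chr1:40429320-40429569 and chr1:40439379-40439628 on the plus strand, holds any of the 5 motifs, which says only that these letters are absent from these windows.
Il1rl1 first start: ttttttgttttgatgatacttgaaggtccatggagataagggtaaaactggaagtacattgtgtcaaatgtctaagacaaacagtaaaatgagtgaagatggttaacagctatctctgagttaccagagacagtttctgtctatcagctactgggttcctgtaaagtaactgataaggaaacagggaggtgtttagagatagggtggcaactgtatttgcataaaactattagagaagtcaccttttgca
Il1rl1 second start: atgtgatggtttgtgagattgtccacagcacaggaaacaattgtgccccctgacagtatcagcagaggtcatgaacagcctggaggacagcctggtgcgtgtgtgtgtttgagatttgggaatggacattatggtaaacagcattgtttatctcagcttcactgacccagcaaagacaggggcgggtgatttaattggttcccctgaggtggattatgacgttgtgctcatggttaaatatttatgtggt

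Il1rl1 is also a gene of mast cells, basophils, eosinophils and lymphoid cells. Of 8 mast cell and basophil genes in the table, Kit, Fcer1a, Ms4a2, Tpsb2, Gata2 and Cma1 were at the floor in all 11 mice, and Cpa3 was above it in mouse 1 alone, at 48.2 normalized counts. The only other gene of that list above the floor was Hdc, at 109 to 319 normalized counts, with summed levels of the list of 109 to 319, and it was not called after IL-4c in either genotype, at 0.31 and -0.58 on the log2 scale, although without mouse 1 it was called higher in Rα+/+ mice (0.73, against -0.10 without mouse 2) and without mouse 1 or mouse 2 called lower in RαTd/Td mice. Between the genotypes after PBS, Hdc was called higher in RαTd/Td mice (1.02, adjusted p = 0.0436 in limma), a call lost when any of 10 of the 11 mice was left out (0.60 to 1.44, adjusted p up to 0.275). All 6 eosinophil genes in the table and Gata3, Il5 and Il13 of the T and innate lymphoid list were at the floor in all 11 mice, those in which Il1rl1 was measured included. Only these 3 of the 12 genes on the T and innate lymphoid list are in the table. The part of such cells in the Il1rl1 values was not tested.

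The other receptor genes showed no called change with all mice kept. Il1rap, the shared subunit that ST2 and the IL-1 receptor need to signal, was at 41.3 to 86.0 normalized counts in the 11 mice. Il1r1, the signalling receptor of IL-1, was above the floor only in mice 5 and 6, at 36.6 and 41.3, and was called higher in Rα+/+ mice without mouse 7 (0.36 on the log2 scale). The decoy receptor gene Il1r2 and the IL-18 receptor gene Il18r1 were at the floor in all 11 mice. Of 11 receptors and binding proteins on the list, 5 are in the table and 3 were tested, with Il1rl1 the only one called after IL-4c in both genotypes.

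Nlrp3 encodes the sensor of the best-studied inflammasome. It was at 281 and 174 normalized counts in PBS-treated Rα+/+ mice and at 265 and 315 in PBS-treated RαTd/Td mice. After IL-4c it was at the floor in Rα+/+ mice 5, 6 and 7 and in RαTd/Td mouse 10, and at 33.3, 39.9 and 35.6 in mice 9, 11 and 12. All 7 IL-4c-treated mice lay far below all 4 PBS-treated mice, and the 3 measured values were close to the lowest that could be measured.

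The PBS means of Nlrp3 were 228 ± 75.9 (SD, n = 2) in Rα+/+ and 290 ± 35.5 (SD, n = 2) in RαTd/Td mice. Nlrp3 was at least 6.29-fold lower after IL-4c in Rα+/+ mice, with a log2 difference of -2.84 (SE 0.20) and an adjusted p of 3.29e-06 in limma. In RαTd/Td mice, of which 1 of 4 was at the floor, it was at least 8.32-fold lower, with a log2 difference of -3.03 (SE 0.19) and an adjusted p of 1.93e-06. It was called lower under each setting that tested it, but by less with a common floor, at -1.95 and -2.34, and at -1.09 and -0.81 with a common floor and scaling on the positive control probes together.

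The genotypes did not differ in Nlrp3 beyond the error. After PBS the log2 difference was 0.39 (95% confidence interval -0.10 to 0.87, adjusted p = 0.331 in limma), and without mouse 1 it was 0.73 and called (adjusted p = 0.0263, against a highest value of 1 over all settings). After IL-4c it was 0.20 (-0.17 to 0.56, adjusted p = 0.525 in limma), from values at or near the floor. The genotype difference in the response was -0.19 (-0.80 to 0.42), with an adjusted p of 0.772 in limma.

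The Nlrp3 promoter is shown because this gene fell in both genotypes. In the window of its first start, chr11:59541319-59541568 on the plus strand, capitals mark bases 65 to 74, where the other strand holds an NF-kB match. The window of the other start listed, chr11:59542436-59542685, holds a STAT6 match at bases 129 to 138.
Nlrp3 first start: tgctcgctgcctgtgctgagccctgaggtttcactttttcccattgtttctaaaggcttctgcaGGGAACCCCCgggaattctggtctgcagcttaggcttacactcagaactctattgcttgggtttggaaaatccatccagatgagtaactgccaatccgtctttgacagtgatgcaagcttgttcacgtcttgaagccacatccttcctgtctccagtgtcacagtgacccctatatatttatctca

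**Figure D2:**
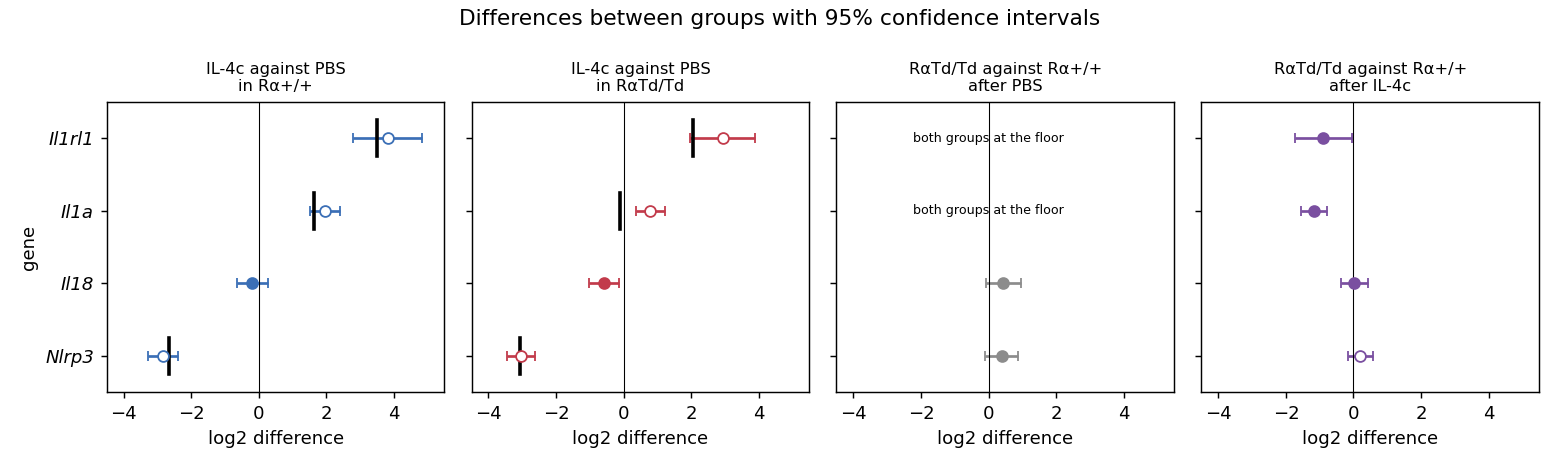
Fitted log2 differences (points) with 95% confidence intervals (bars) for Il1rl1, Il1a, Il18 and Nlrp3 in 4 comparisons, where open points have floored mice in at least 1 group and the black ticks are the log2 limits set by the lowest measurable values, on log2 values without the added 1. The limit for Il1a after IL-4c in RαTd/Td mice is -0.09, on the other side of 0 from the fitted 0.79.

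No gene of the group was called between the genotypes after PBS, where limma called 9.66% of tested genes. Only Il18 and Nlrp3 could have been called, since Il1rl1 and Il1a were at the floor in every PBS-treated mouse. Neither Il18 nor Nlrp3 had an unadjusted p of 0.05 or less in limma, against 102 of all 445 tested genes that did. The methods' unpaired test could be run for Il18 and Nlrp3 alone and called neither, with or without an added Benjamini-Hochberg adjustment. After PBS, Il18 was higher in both RαTd/Td mice than in both Rα+/+ mice, with a log2 difference of 0.44 (95% confidence interval -0.07 to 0.95, adjusted p = 0.300 in limma), while Il1rl1 and Il1a were at the floor in both genotypes and cannot be compared. For the genotype difference in the response to IL-4c, limma called 0 of the 4 genes, against 2.02% of tested genes. Of the 4, only Il1a had an unadjusted p of 0.05 or less in limma, against 69 of all 445 tested genes.

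The genes of the partners of NLRP3 in the inflammasome were measured in every mouse. Pycard, which encodes the adaptor ASC, was at 133 to 192 normalized counts in the 11 mice. Casp1, which encodes caspase-1, was at 225 to 355. Neither was called after IL-4c in either genotype, with log2 differences of 0.11 and 0.02 for Pycard and -0.04 and -0.28 for Casp1 in Rα+/+ and RαTd/Td mice. Casp1 was called lower in Rα+/+ mice without mouse 2 (-0.31, adjusted p = 0.0368 in limma; 0.23 and not called without mouse 1) and in RαTd/Td mice without mouse 1 or mouse 2 (-0.28, adjusted p = 0.0140) or with only the 2 groups fitted (adjusted p = 0.0130). Pycard gained no call with a mouse left out. Pycard, Casp1 and Nlrp3 are the only ones of 24 inflammasome genes on the list that are in the table. With scaling on positive controls Pycard and Casp1 were called higher in both genotypes while Nlrp3 stayed lower. That scaling called 180 of all 445 tested genes higher in Rα+/+ mice and 193 in RαTd/Td mice.

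The genes of the priming step are Toll-like receptors, their co-receptors and NF-kB targets. Of 18 on the list, 17 are in the table and 12 were tested, and 7 were called lower and 1 higher in each genotype. Among all tested genes 32.4% were called lower and 13.9% higher in Rα+/+ mice, and 36.6% and 15.3% in RαTd/Td mice. With 1 mouse left out at a time, the number called lower ranged from 5 to 7 in Rα+/+ mice (5 without mouse 1) and from 4 to 7 in RαTd/Td mice (4 without mouse 4). The median log2 difference of the 12 was -1.36 in Rα+/+ and -1.23 in RαTd/Td mice (-1.33 and -1.23 with floored genes at their limits), against -0.18 and -0.23 for all tested genes. With scaling on positive controls 3 were called higher and 1 lower in each genotype, against 180 higher and 13 lower of all 445 tested genes in Rα+/+ mice and 193 and 6 in RαTd/Td mice.

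Among those lower, Tlr2, a receptor for bacterial lipoproteins, was at least 3.62-fold lower in Rα+/+ and at least 3.77-fold lower in RαTd/Td mice. The chemokine gene Ccl3 was at least 4.84-fold and 5.91-fold lower. Cd14, the co-receptor of Tlr4, was at 1230 to 2066 normalized counts after PBS, at 307 to 358 after IL-4c in Rα+/+ mice and at 519 to 847 in RαTd/Td mice. Its levels after IL-4c did not overlap between the genotypes, and the log2 difference of 0.97 was called (adjusted p = 0.0421 in limma), but the call was lost when any of 9 of the 11 mice was left out (0.86 to 1.09, adjusted p up to 0.193), and with a common floor or centring. That Cd14 call was also lost with no filter, only the 2 groups fitted, the adjusted unpaired test or scaling on positive controls. Tlr4 itself, at 205 to 336, was not called after IL-4c in either genotype, at 0.35 and -0.17, although without mouse 11 the former was called (adjusted p = 0.0273 in limma). With scaling on positive controls Ccl3 was still called lower in both genotypes, while Tlr2 and Cd14 were not called in either. Over all settings the smallest Ccl3 differences were -0.71 in Rα+/+ and -0.53 in RαTd/Td mice, in place of -2.47 and -2.55.

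Il6, an NF-kB target in macrophages, was the only gene of that list called higher after IL-4c, as Il1rl1 and Il1a were. Below measurement in each PBS-treated mouse, so that it too passed the filter only through the IL-4c-treated mice, it was at 157, 177 and 204 normalized counts in IL-4c-treated Rα+/+ mice and at 217, 194, 126 and 81.5 in RαTd/Td mice. The log2 differences were 2.53 and 2.23, with adjusted p of 0.000316 and 0.000469 in limma, and 1.65 and 1.34 with a common floor. Without mouse 12 the latter was 2.50. Il6 was at least 4.63-fold and 2.57-fold higher, and mouse 12 was the lowest of the IL-4c-treated mice, as it was for Il1rl1.

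The MyD88 pathway, through which ST2 and the IL-1 receptor signal, had 5 of its 20 listed genes in the table, all tested. Myd88 was at 136 to 217 normalized counts and was not called after IL-4c. Nfkbia, which encodes the NF-kB inhibitor IκBα and is itself an NF-kB target, was lower after IL-4c by log2 differences of -1.06 in Rα+/+ (adjusted p = 0.000562 in limma) and -0.48 in RαTd/Td mice (adjusted p = 0.0246), the latter not called without mouse 3 or mouse 4 (adjusted p up to 0.119), with centring (-0.15) or with quantile normalization (-0.34). Nfkb1 was called lower in RαTd/Td mice alone, at -0.41 (-0.30 and not called without mouse 4, -0.083 with centring and -0.11 with quantile normalization, neither called), while in Rα+/+ mice it was -0.25 and was called without mouse 2 (-0.45), and the genotypes did not differ in this response beyond its error (-0.16, adjusted p = 0.719 in limma). With scaling on positive controls both genes had positive differences in RαTd/Td mice, and Nfkbia also in Rα+/+ mice. The Nfkb1 value in Rα+/+ mice with that scaling is not given here.

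**Figure D3:**
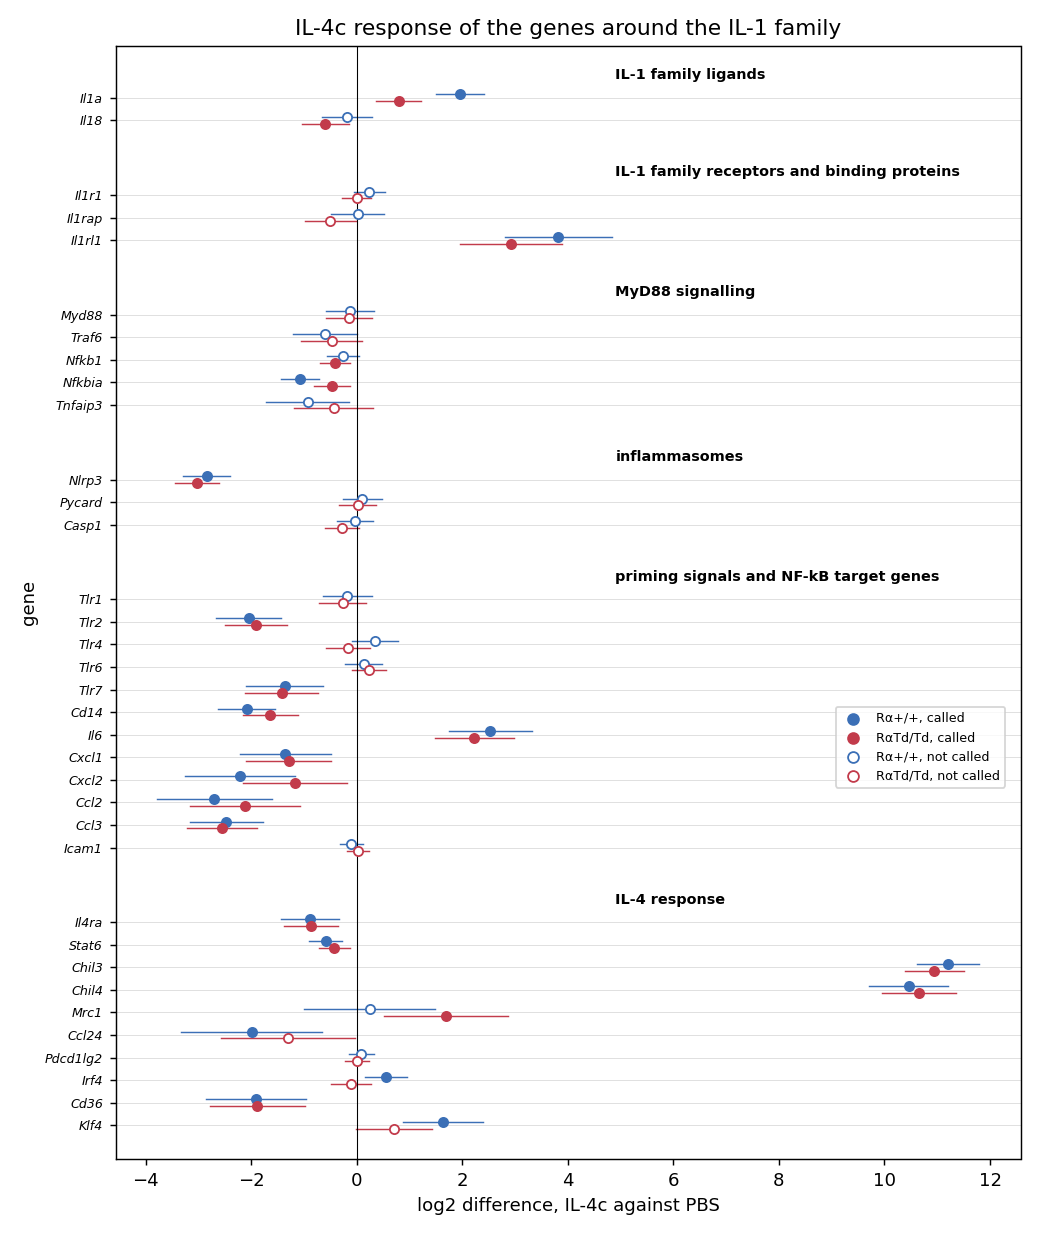
Fitted log2 differences (points, filled where called) with 95% confidence intervals (bars) after IL-4c for tested genes of 6 lists, in Rα+/+ (blue) and RαTd/Td mice (red), without Retnla. Il1rl1, Il1a and Il6 lie to the right, Nlrp3 and 7 priming genes to the left, and Pycard and Casp1 near 0, directions that hold for the scaling to housekeeping genes and partly turn with scaling on positive controls.

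Of 18 listed genes of the IL-4 response, 16 are in the table and 12 were tested, and the calls were 6 up and 4 down for Rα+/+ mice and 4 up and 3 down for RαTd/Td mice. The shares of all tested genes were 13.9% up and 32.4% down, and 15.3% and 36.6%. Retnla is 1 of the 12 and was called higher in Rα+/+ mice (5.03), while in RαTd/Td mice, where it was at the floor in every mouse, it could not be called. With 1 mouse left out at a time, the number called higher ranged from 5 to 6 and from 3 to 5 in Rα+/+ and RαTd/Td mice, and the number called lower from 1 to 4 in both (1 without mouse 1 and 2 without mouse 2 in Rα+/+ mice, 1 without mouse 4 in RαTd/Td mice). Chil3, which encodes a chitinase-like protein, was at least 1902-fold higher in Rα+/+ mice and 1084-fold higher in RαTd/Td mice. Il4ra and Stat6, the receptor subunit and transcription factor of this response, were among those called lower in both genotypes, but these calls depended on single mice and settings. Il4ra was not called in Rα+/+ mice without mouse 1 (-0.85) or mouse 2 (-0.92), nor in RαTd/Td mice without mouse 4 (-0.68), nor in either with quantile normalization. Stat6 was not called in RαTd/Td mice without mouse 3 (-0.44) or mouse 4 (-0.41) or with quantile normalization, nor in either genotype with centring. With scaling on positive controls the differences of both were positive.

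The lanes of the groups differed in ways that bear on these values. The geometric mean of the 6 positive control probes was 853 to 1021 counts in PBS lanes and 301 to 623 in IL-4c lanes, so scaling to these probes in place of housekeeping genes raises the values after IL-4c relative to PBS. Every result with this scaling also has a common floor, and the scaling alone was not run. The median log2 difference of all tested genes was then 0.57 in Rα+/+ and 0.65 in RαTd/Td mice in place of -0.18 and -0.23, and calls split into 180 up and 13 down in place of 62 and 144 for Rα+/+ mice, and into 193 and 6 in place of 68 and 163 for RαTd/Td mice. With each mouse centred on its median gene the splits were 110 and 103, and 140 and 103, and with quantile normalization 104 and 107, and 89 and 109. Il1rl1 remained called higher at 3.34 and 2.02 and Nlrp3 called lower in both genotypes with scaling on positive controls, and the part of the positive controls in the other results was not tested.

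**Figure D4:**
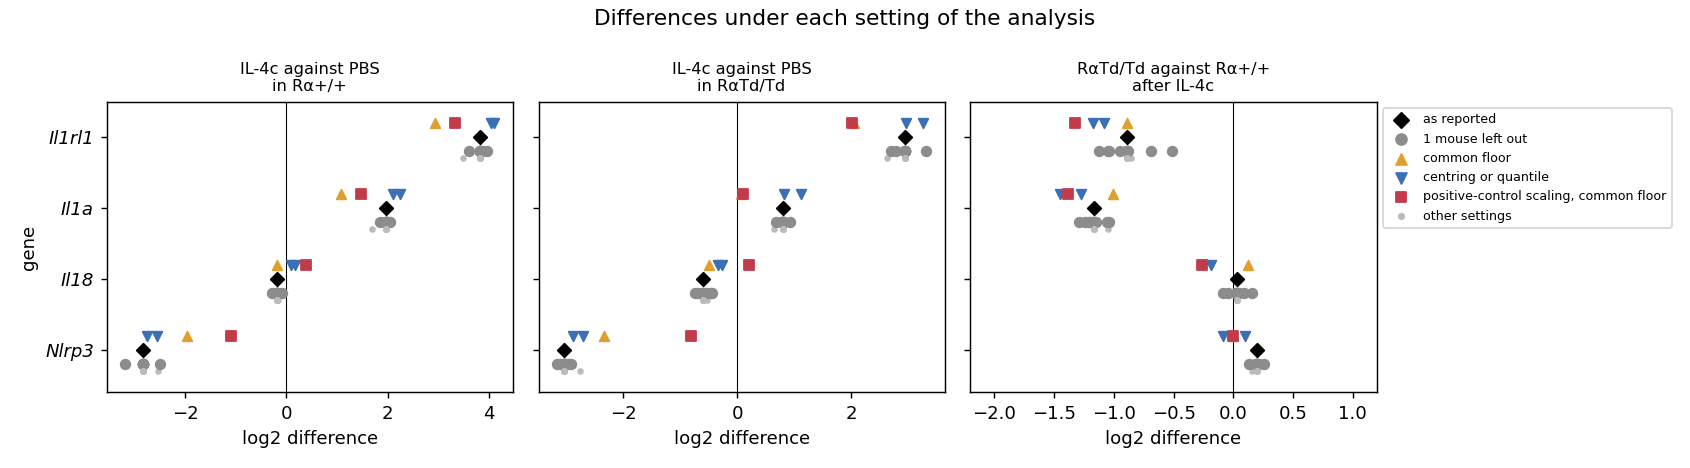
Log2 differences of Il1rl1, Il1a, Il18 and Nlrp3 in 3 comparisons as reported (black diamonds), with 1 mouse left out (dark grey), with a common floor (yellow), with centring or quantile normalization (blue), with positive-control scaling (red) and under other settings (small grey dots). Il1rl1 stays right of 0 and Nlrp3 left of 0 after IL-4c, Il18 crosses 0, and Il1a after IL-4c in RαTd/Td mice reaches 0.07.

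Markers of the sorted macrophages and of other cells also moved with treatment. Of the 9 peritoneal macrophage genes in the table, all tested, 5 were called lower and 1 higher after IL-4c in each genotype, against 32.4% lower and 13.9% higher of all tested genes in Rα+/+ and 36.6% and 15.3% in RαTd/Td mice, with a median log2 difference of -0.97 in Rα+/+ and -0.93 in RαTd/Td mice against -0.18 and -0.23 for all tested genes, and Csf1r, Mertk, Timd4, Fcgr1 and Cd14 were the 5 lower in both. Between the genotypes after IL-4c, 2 of the 9 were called higher in RαTd/Td mice, against 7 of all 445 tested genes. They were Cd14 as above and Mertk at 0.78 (adjusted p = 0.0421 in limma). Mertk was not called when any of 9 of the 11 mice was left out, at 0.68 to 0.92 over all. The part of both genes in the Il1a difference was not tested. Both calls were also lost with no filter, a common floor, only the 2 groups fitted, the adjusted unpaired test or scaling on positive controls. Of 9 neutrophil and monocyte genes in the table, Csf3r was the most abundant, and their summed level above the floor was 385 to 630 normalized counts in PBS-treated mice and 0 to 151 in IL-4c-treated mice, with Ly6g, Cxcr2, Mpo, Elane and Camp at the floor in all 11 mice. The B cell gene Ms4a1, 1 of 2 in the table, was at 105 to 242 normalized counts after PBS and at the floor after IL-4c except in mouse 12. Of 5 genes of small peritoneal macrophages and dendritic cells in the table, Ccr2 and Irf4 were above the floor, with a summed level of 200 to 621, the highest in mouse 12. The part of these cells in the fall of Nlrp3 or the priming genes was not tested.

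For each of the 4 tested genes, the genes with the most alike pattern over the 11 mice were found by the root mean square difference of centred log2 values, as a description. Nlrp3 was most like the chemokine genes Cxcl12 (0.20) and Ccl3 (0.34) and the phosphatase gene Dusp1 (0.36). Il1rl1 was most like the proliferation gene Top2a (0.52), Il6 (0.54) and Serpinb7 (0.56). Il1a was most like Dusp2 (0.41) and Sema4b (0.43), and Il18 was most like Zfp148 (0.14), Pros1 (0.17) and Vsir (0.17).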

How the data were processed

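Sorted peritoneal macrophages from 11 mice were grouped by the labels' genotype and treatment, and all columns of the table were used. The deposited gene values are signal, made by the authors by scaling counts to the housekeeping genes Rpl19, Oaz1, Gusb and Eef1g, and any low value reads 30. The 14 control probes are whole counts without this scaling. Dividing by the factor of each mouse (0.75 to 1.88) gave whole counts, within 0.1, for 100% of values between the floor and 1000. These counts served for depth, Poisson intervals and lowest measurable values.

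The 445 genes with a mean above 30 were tested and the other 309, at the floor in every mouse, were left out. Log2 values (1 added) of all 11 mice entered 1 linear model with a coefficient for each group (limma 3.58.1, R 4.3.3). Benjamini-Hochberg adjustment was made within each comparison, with calls at 0.05 or less. The PBS groups held 2 mice each, which limits precision.

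The named genes are the 6 members, Retnla, and genes of 6 lists (ligands, receptors, MyD88 signalling, inflammasomes, priming, IL-4 response), with marker lists of 8 cell types and the 3 genes of most alike pattern. A few of these genes are not reported here. Genes singled out in the text for mouse 12 were chosen after their values were seen. The members and lists were chosen with earlier results of these data known. Alternatives were no filter, a mean above 100, above 30 in every mouse, a common floor of 56.3, median centring, quantile normalization, a pseudocount of 10, leaving out each mouse, only the 2 groups compared, a trend with robust moderation, and the methods' unpaired test with and without adjustment. Scaling on 6 positive controls with a common floor was chosen after seeing the data. Promoters are from RefSeq, GRCm38.p6. Pathway scores, flow cytometry and protein values were not used here.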

Additional observations from a re-analysis of the deposited data

Results flagged for a closer look

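With 4 IL-4c-treated RαTd/Td mice, 38 listed genes measured in all of them were checked for a mouse far from the other 3, and 2 had one, where chance gives about 1 in 20. Casp1 was lowest in mouse 11, at 271 (270.55) normalized counts, while mice 9, 10 and 12 lay between 288 and 291. Ccl24 was highest in mouse 12, at 3689 (3689.31) normalized counts.

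Retnla differed between the genotypes in its response to IL-4c by -5.03 on the log2 scale. It was at the floor in all RαTd/Td mice, so this value is the response of the Rα+/+ mice.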

How the results depend on the processing

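Of the values of the 4 tested genes under the alternatives, 392 kept direction and side of the threshold, 13 lost the call, 4 gained it and 14 changed sign. For the called results of the other listed genes, 800 stayed, 104 lost the call and 10 changed sign, and results not called were not counted. With a mouse left out, calls after IL-4c also rose in the lists, in Rα+/+ mice from 1 to 2 for receptor and priming genes up and inflammasome genes down and from 1 to 3 for MyD88 genes down, and in RαTd/Td mice from 4 to 5 up and 3 to 4 down for IL-4 response genes and from 1 to 2 for inflammasome genes down.

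The number called after IL-4c in Rα+/+ mice (3) fell to 0 when genes had to be above 30 in every mouse, since only Il18 was then tested, and to 2 with a mean above 100. In RαTd/Td mice (4) it was 3 with a common floor (without Il1a), 3 with centring, quantile normalization, no filter, only the 2 groups or the unadjusted unpaired test (without Il18 in each), 2 with a mean above 100, 1 with above 30 in every mouse, 2 with the methods' unpaired test after adjustment, 2 with scaling on positive controls, and 3 to 4 with a mouse left out. Between the genotypes after PBS (0) it ranged from 0 to 1 with a mouse left out. After IL-4c (1) it was 0 with either stricter filter, which drops Il1a, and 0 with only the 2 groups fitted or the unpaired test after adjustment, and it was 1 with any mouse left out. For the difference in response (0) it was 1 with a common floor or quantile normalization (Il1a at -1.01 and -1.28), and 0 to 1 with a mouse left out, Il1a being called without mouse 10 (-1.29). Where a PBS group was left with 1 mouse, it was assumed to vary like the other groups. No paired analysis was possible because mouse numbers are not shared between groups. Unless the filter shows it, the cause was not tested.

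With scaling on positive controls, signs turned for Il18 (0.20 in RαTd/Td and 0.39 in Rα+/+ after IL-4c, -0.26 between genotypes after IL-4c, -0.070 after PBS), Nlrp3 (-0.28 between genotypes after PBS, 0.28 in the difference in response), Il4ra (0.64 and 0.39), Nfkbia (1.03 and 0.21) and Stat6 (1.08 and 0.69) in RαTd/Td and Rα+/+ mice after IL-4c, and Cxcl2 (0.24), Nfkb1 (1.09), Tlr2 (0.032) and Tlr7 (0.085) in RαTd/Td mice. Centring turned Il18 in Rα+/+ mice (0.10) and between genotypes after IL-4c (-0.25), and Nlrp3 there (-0.085). Quantile normalization turned Il18 in both (0.17 and -0.19). With a mouse left out, Il18 between genotypes after IL-4c was -0.083 to 0.16 and the Nlrp3 difference in response -0.53 to 0.16.

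All genes called between the genotypes after PBS were 43, with 18 without a filter, 23 with centring or quantile normalization, 3 with only the 2 groups, 2 with positive controls or the adjusted unpaired test, 54 with the unadjusted, and 3 to 73 with a mouse left out. After IL-4c they were 12, with 5, 7 and 6 under the other filters, 3 with a common floor, 2 with only the 2 groups or the adjusted unpaired test, 73 unadjusted, 6 with positive controls and 5 to 27 with a mouse left out. For the difference in response they were 9, with 4 and 2 under stricter filters, 16 with a common floor, 18 with quantile normalization, 4 with positive controls and 3 to 34 with a mouse left out. Depth limits Il1a in RαTd/Td mice, Il1b and Il1rn.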

Other observations

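Among the IL-4c-treated mice, 10 genes of the IL-4 response list were measured in all 7, and 2 of them, Chil3 and Chil4, put the mice of each genotype in the same order as Il1rl1 did. Mice 5, 6 and 7 had 56993, 75307 and 91581 normalized counts of Chil3, and mice 9, 10, 11 and 12 had 69620, 81626, 55754 and 43527. This order was noted after the values were seen and was not tested. Whether the probes tell the near-identical transcripts of Chil3 and Chil4 apart was not tested either.

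Klf4, which encodes a transcription factor that cooperates with STAT6, was higher after IL-4c in Rα+/+ mice by 1.64 on the log2 scale (adjusted p = 0.00375 in limma) and was not called in RαTd/Td mice at 0.71 (adjusted p = 0.0934), although without mouse 12, the lowest of its group, it was 0.97 and called (adjusted p = 0.00899 in limma). The difference between these responses was not called, at -0.93 (adjusted p = 0.381 in limma) and at -0.67 without mouse 12.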
